A study of Mus musculus with 5 samples.

Results

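Interferon-stimulated genes are the antiviral and immune defence genes that cells switch on when interferon reaches them. A fixed list of 33 such genes was followed in germinal centre B cells, the dividing, antibody-mutating B cells of the immunized spleen, with and without floxed Rel, which encodes c-Rel, a subunit of NF-kB. Members were found by symbol among the probe sets that the array annotation ties to exactly 1 gene. Of the 33 members 31 had such a probe set, and 28 passed the filter on dim signals, out of 12082 genes tested in all. Isg15, which encodes a ubiquitin-like modifier, and Ifi44 had no single-gene probe set and are not analysed here. Mx2, Oas2 and Oas3, which encode antiviral proteins, lay below the filter. The members split into 28 type I style genes (23 tested), which respond mainly to interferon alpha and beta, and 5 genes of the guanylate-binding and immunity-related GTPase families (GBP/IRG, all tested), which respond strongly to interferon gamma as well.

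As background, type I interferons bind the IFNAR1 and IFNAR2 receptor chains, which activate the JAK1 and TYK2 kinases. The kinases lead to a complex that holds STAT2 and IRF9, and this complex binds the interferon-stimulated response element (ISRE) in the promoters of its targets. Interferon gamma signals through IFNGR1 and IFNGR2 and acts on a different promoter motif, the gamma-activated site (GAS). Many promoters of the family can also be bound by interferon regulatory factors, some of which B cells express without infection, and some promoters carry NF-kB sites.

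Gene expression was measured on 5 single-colour Affymetrix arrays, 1 per sample. The 3 WT samples came from C57BL/6 mice with Cg1-Cre alone, sorted as eGFP-negative germinal centre B cells. The 2 REL samples came from relfl/flCg1-Cre littermates and were sorted as eGFP-positive cells. All mice were 12 weeks old, all carried Cg1-Cre, and their spleens were taken 7 days after sheep red blood cells were injected, a strong T cell-dependent antigen. Cg1-Cre is active in B cells that transcribe the IgG1 constant region, so other cells of the REL mice are expected to keep Rel. The colour gate differed between the groups, and the labels do not say whether each sample was 1 mouse or a pool, so p-values speak only of how these 5 samples spread, and that spread may be technical.

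Values are MAS5 signals on a linear scale, and differences are REL minus WT on the log2(signal + 16) scale with the standard error (SE) from limma. A difference was called at a limma adjusted p under 0.05 over all 12082 genes. Signals below 23.1 count as dim here, since that is the level of the filter, and they vary widely by a log measure. Germinal centre B cell markers were bright: all 11 measured of 13 listed, among them Bcl6, S1pr2 and Cd79a, were above the dim limit on all 5 arrays, and their summed signal was 64206 to 78446 in WT and 64142 and 72624 in REL. Rel gave 492, 134 and 206 for WT and, for REL, 18.6 and 85.2 (difference −2.12, SE 0.73, limma adjusted p = 0.46, not called). The labels do not place the deletion relative to its probe set. Macrophage markers differed between the groups: 12 of 15, among them Csf1r and Vcam1, were higher on both REL arrays than on every WT array. Among all genes tested that share was 9.53%. The summed signal of the 15 was 1334 to 1902 in WT and 6315 and 6605 in REL, and 0 of the 15 were dim on every array. Vcam1 (0.83 to 2.46 in WT, with 671 and 390 in REL), C1qc, Mertk, Mrc1 and Spic were dim on every WT array. All of these but C1qc were tested, and they passed the filter only through their REL signals. Adgre1, which encodes F4/80, went the other way, with 154 to 435 in WT and 120 and 116 in REL, and C1qa and Cd68 overlapped. Vcam1 was the 1 gene called of the whole comparison (4.89, SE 0.52, limma adjusted p = 0.0388), and no gene was called higher with 1 or 64 added, no filter, the 60% filter, the filter by linear mean, the mean of probe sets, every probe set or no trend. Markers of plasmacytoid dendritic cells, strong producers of type I interferon, summed to 4512 to 5786 in WT, with 6439 and 6583 in REL. Most of that sum was Ly6d (3706 to 4868 in WT, with 5756 and 5297 in REL), while Klk1 lay below WT on both REL arrays (133 to 218 in WT, with 110 and 106 in REL) and the other 5, the defining gene Siglech among them (16.5 to 43.3 in WT, with 54.4 and 38.6 in REL), overlapped. Conventional dendritic cell markers summed to 605 to 868 in WT, with 885 and 1590 in REL. Most of that was Flt3 (395 to 649 in WT, with 776 and 1286 in REL). Zbtb46 (66.2 to 190 in WT, with 18.6 and 113 in REL), Itgax and Xcr1 overlapped, and Clec10a was dim on every array. Natural killer cell markers summed to 201 to 435 in WT, with 575 and 635 in REL. Nearly all of it was Prf1, since Ncr1, Nkg7, Klrd1 and Gzma were dim on every array. For T cells the sums were 4955 to 5473 in WT, with 5391 and 6551 in REL. Most of that was Cd2 (4396 to 5233 in WT, with 5725 on REL 1 and 5088 on REL 2). Cd3d, Cd4 and Cd28 were dim on every array, and Cd3e, Cd3g and Thy1 were above the dim limit on 2 arrays each. Sums of monocyte and neutrophil (187 to 1357 in WT), plasma cell (17808 to 20836) and follicular B cell markers (8841 to 10190) reached 119 to 431, 17278 to 19114 and 9664 to 10016 in REL. Most of the plasma cell sum was Jchain. In that list Sdc1 was lower in REL without overlap (125 to 455 in WT, with 42.6 and 42.4 in REL) and Xbp1 higher (1708 to 1985, with 2469 and 2805). In the follicular list Cr2 was lower without overlap (2440 to 3216, with 1896 and 1411) and Bank1 higher (4397 to 5251, with 5464 and 5988). Macrophages and dendritic cells also express interferon-stimulated genes, and the part of such cells in the values below was not tested. In sorted cells in bulk, fewer cells of a type and less RNA per cell cannot be told apart.

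The promoters of 6 members are shown because they hold the ISRE, the element bound by the type I complex, in genes that lay at different places in the comparison: Rsad2 and Gbp3, both lower in REL, Ifit1, the tested member with the highest difference, and 3 GTPase genes whose arrays overlapped. Each line gives up to 160 bases before the annotated start, 5′ to 3′, from RefSeq (GRCm38.p6), with ISRE matches in capitals; that of Gbp3 stops 29 bases before the start because the annotated gene span begins there.

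Rsad2, chr12:26456453-26456612, minus strand: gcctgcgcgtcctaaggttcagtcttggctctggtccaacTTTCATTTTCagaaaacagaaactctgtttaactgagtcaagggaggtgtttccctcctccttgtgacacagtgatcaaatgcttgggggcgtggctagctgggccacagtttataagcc
Gbp3, chr3:142559884-142560015, plus strand: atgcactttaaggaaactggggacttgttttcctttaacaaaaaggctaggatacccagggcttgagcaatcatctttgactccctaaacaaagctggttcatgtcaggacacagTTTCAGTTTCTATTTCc
Ifit1, chr19:34640729-34640888, plus strand: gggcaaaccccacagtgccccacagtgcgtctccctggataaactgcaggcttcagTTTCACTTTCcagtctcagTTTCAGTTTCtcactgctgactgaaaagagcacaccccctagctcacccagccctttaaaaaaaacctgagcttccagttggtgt
Gbp2, chr3:142620503-142620662, plus strand: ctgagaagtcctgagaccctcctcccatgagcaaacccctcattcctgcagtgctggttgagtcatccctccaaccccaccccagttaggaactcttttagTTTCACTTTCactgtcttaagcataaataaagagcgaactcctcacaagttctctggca
Igtp, chr11:58199396-58199555, plus strand: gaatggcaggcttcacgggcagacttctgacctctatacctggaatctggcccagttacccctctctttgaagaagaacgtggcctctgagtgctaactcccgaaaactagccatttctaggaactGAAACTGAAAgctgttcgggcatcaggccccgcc
Irgm1, chr11:48871421-48871580, minus strand: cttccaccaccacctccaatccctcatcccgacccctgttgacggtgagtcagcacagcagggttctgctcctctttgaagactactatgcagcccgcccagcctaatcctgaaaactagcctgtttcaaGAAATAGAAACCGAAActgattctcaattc

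The ISRE was searched as GAAANNGAAA on both strands (TTTCNNTTTC on the other), allowing overlaps, in windows of 250 bases before to 50 bases after each start. It occurred in 15 of the 31 promoters listed for 25 members (48.4%) and in 3.44% of all 32851 promoters of that length. Rsad2 held 1 match at −120 from the start, Ifit1 held matches at −104 and −85, and those of Gbp3, at −45 and −39, overlap. Ifit3 held TTTCACTTTC at −156 and TTTCAGTTTC at −122, and Oas1a held GAAATGGAAA at −20 and GAAACTGAAA at −14. The GAS motif TTCNNNGAA, its own reverse complement, was in 6 of the 31 promoters (19.4%) against 8.30% of all, and the NF-kB consensus motif, searched on both strands, in 6 (19.4%) against 8.46%. Igtp held GAS TTCTAGGAA at −45, beside its ISRE. Ifit2 held a GAS and an NF-kB match and no ISRE, and Isg20 had the same over its annotated starts. Mx1, Mx2, Oas2, Usp18, Dhx58, Zbp1, Parp14 and Rtp4 are not in the promoter table. Among the tested members with a promoter, the 12 with an ISRE had a median difference of −0.24, 7 of them below 0, and the 10 without one had a median of 0.13, 4 of them below 0. The 5 with an NF-kB match had a median of 0.13, 2 of them below 0, and the 17 without one −0.21, 9 of them below 0. The 6 with a GAS had a median of −0.32, 3 of them below 0, and the 16 without one −0.04, 8 of them below 0. These counts are a description of letters, and a match is not a shown binding site.

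The comparison asked what the loss of floxed Rel by Cg1-Cre does to germinal centre B cells, and the interferon-stimulated genes lay on both sides of 0. Of the 28 tested members 0 were called, with limma adjusted p from 0.248 to 0.998. In the same fit 1 gene of 12082 was called higher (0.00828%) and 0 lower (0%). There were 15 members above 0 and 13 below, and their median difference was 0.06, beside −0.07 for all genes. At an unadjusted limma p under 0.05, 0 members were higher, against 3.24% of all genes. At that level 4 were lower (Rsad2, Ifit2, Gbp3 and Ifi47), which is 14.3% of the members against 4.99% of all genes. The list was chosen with earlier results of these data known, so these shares describe it and test nothing. They also depend on the probe set kept per gene. Of the 39 member probe sets that passed the filter, 2 were higher (Zbp1 and Trim30a) and 5 lower (Parp14 besides those 4 genes). These come from the fit over probe sets. The share of all probe sets past that level was not counted, so these numbers are not a result about the members. For 0 members did both REL arrays exceed all WT arrays, against 9.53% of genes, and for 5 (Rsad2, Ifit2, Isg20, Irf7 and Gbp3) both lay under all of them, which is 17.9% against 14.3% of genes. The last share is near the background, and it is not a result about the members. With 3 arrays against 2, an exact two-sided rank test of a single gene cannot go below p = 0.2, so array ranks alone cannot reach the threshold.

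**Figure D1:**
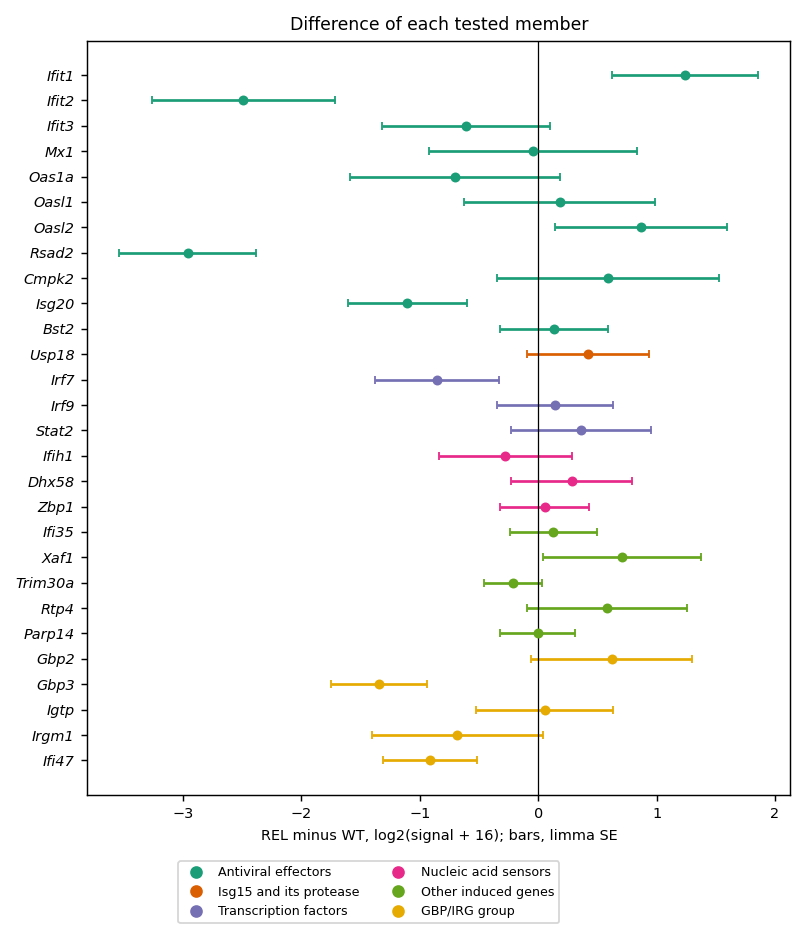
Difference between REL and WT (horizontal axis, log2(signal + 16) scale) for each of the 28 tested members, coloured by role; points are the limma estimates and bars 1 SE. Rsad2 (−2.96) and Ifit2 (−2.49) lie farthest below 0 and Ifit1 (1.24) farthest above, and most bars of the other genes cross or come near 0.

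Rsad2, which encodes viperin, an enzyme that makes a chain-terminating nucleotide against viruses, had the lowest difference. Its brightest probe set, 1436058_at, measured 152, 235 and 86.7 across WT, beside 8.84 and 1.56 across REL. REL was dim on both arrays and WT was above the dim limit on all 3, and the difference was −2.96 (SE 0.58, limma adjusted p = 0.248). The size of the difference depends on the added 16, and with 64 added it was −1.63. A different Rsad2 probe set, 1421009_at, read 97.9, 6.57 and 64.3 on the WT arrays against 265 and 8.37 on the REL arrays, a difference of 0.49 (SE 1.04). Here the groups overlapped, with REL 1 the highest array of all and REL 2 near the lowest. The remaining probe set, 1421008_at, did not pass the filter, at 18.4, 7.88 and 26.4 on WT arrays and 15.8 and 2.30 on REL arrays. The gene thus has 1 probe set with separated groups and others without. The choice of the brightest probe set turned to 1421009_at with 1 added in place of 16 (0.45), without WT replicate 1 (0.96) and without WT replicate 2 (−0.21). With 1436058_at kept the difference was −2.94 and −2.65 without those arrays.

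Cmpk2, a mitochondrial nucleotide kinase gene that is the direct neighbour of Rsad2 in the RefSeq annotation and is induced together with it, had overlapping groups. Its brightest probe set gave 50.1, 114 and 184 for WT and, for REL, 561 and 40.4. REL 1 was the highest and REL 2 the lowest of the 5 arrays, and the difference was 0.59 (SE 0.94), turning to −1.09 without REL replicate 1. The other Cmpk2 probe set had the same order in REL, at 103 and 15.4, and a difference of 0.83 (SE 0.73).

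The Ifit genes encode tetratricopeptide proteins that bind foreign RNA. Ifit2 measured 242, 507 and 69.4 across WT, beside 16.6 and 33.5 across REL. The groups did not overlap, REL being lower, at a difference of −2.49 (SE 0.77, limma adjusted p = 0.425). Ifit1, in the same gene cluster, read 28.3, 10.2 and 9.35 on the WT arrays against 22.1 and 124 on the REL arrays. WT 2, WT 3 and REL 1 were dim and only REL 2 stood above the WT range. The difference of 1.24 (SE 0.62) was 0.30 without REL replicate 2, where the gene no longer passed the filter. Ifit3, the direct neighbour of Ifit2, gave 193, 97.0 and 72.8 for WT and, for REL, 146 and 27.5. The groups overlapped, with a difference of −0.61 (SE 0.71) that was 0.34 without REL replicate 2. The 3 Ifit genes gave 3 patterns over the same 5 arrays.

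Isg20, an exonuclease gene for single-stranded RNA, measured 488, 487 and 539 across WT, beside 150 and 337 across REL. The WT arrays were within 0.14 log2 units of each other and both REL arrays were lower, at a difference of −1.10 (SE 0.51, limma adjusted p = 0.616). Without REL replicate 1 it was −0.56 and without REL replicate 2 it was −1.65. Bst2, which encodes tetherin, a membrane anchor that holds budding virus, read 344, 546 and 364 on the WT arrays against 397 and 511 on the REL arrays, inside the WT range (0.13, SE 0.46).

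Mx1 encodes an influenza-restricting GTPase that is defective in C57BL/6 and most other laboratory strains, so its RNA is a reporter of induction more than of defence. Its signals across WT were 126, 4.58 and 61.4, and the REL arrays lay between them at 11.8 and 109. The difference of −0.05 (SE 0.88) had no stable sign (0.14 with quantile normalization, 0.12 with median centring). The oligoadenylate synthetase genes make or resemble the enzymes that activate RNase L. Oas1a gave 43.1, 334 and 211 for WT and, for REL, 199 and 33.1 (−0.71, SE 0.89), and Oasl1 measured 44.4, 342 and 82.8 across WT, beside 205 and 80.4 across REL (0.18, SE 0.81). In both the WT arrays alone spanned about 2.57 log2 units, which covers both REL arrays of Oasl1 and REL 1 of Oas1a. Oasl2 measured 45.1, 44.9 and 57.9 across WT, beside 34.5 and 262 across REL, so that REL 2 alone stood apart (0.87, SE 0.72; −0.36 without REL replicate 2). Of the 3 members below the filter, Oas3 read 34.6, 8.91 and 43.8 on the WT arrays against 5.63 and 1.39 on the REL arrays, with REL lower without overlap but dim, Oas2 stayed dim on all 5 arrays (8.17 to 21.2), and Mx2 was above the dim limit only on REL 2, at 25.0. No test was made of these.

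**Figure D2:**
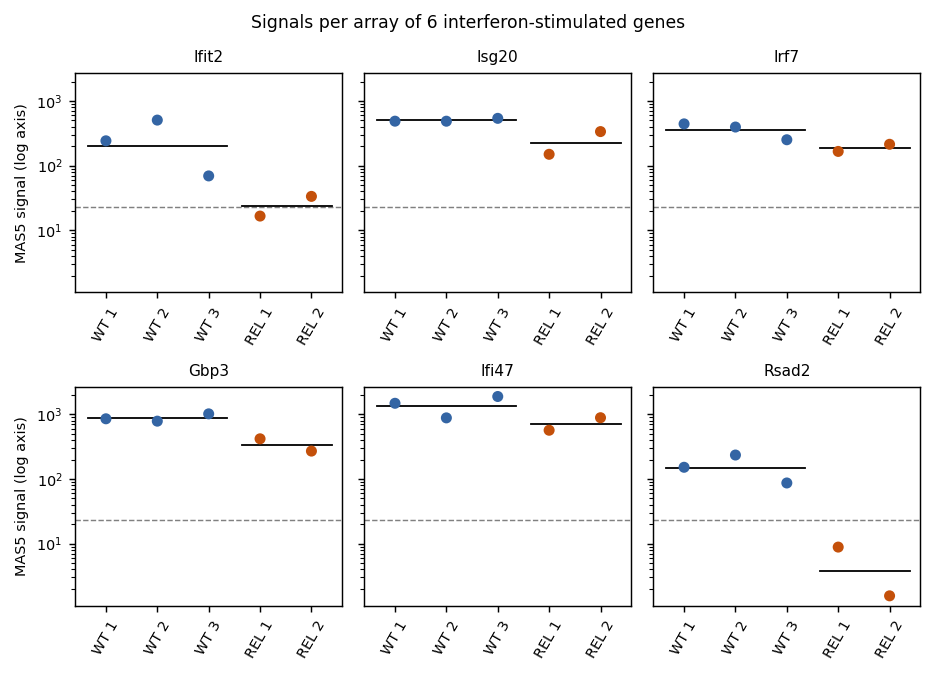
MAS5 signals on a log axis for each array (WT in blue, REL in orange; bars, geometric means; dashed line, the dim limit of 23.1) of Ifit2, Isg20, Irf7, Gbp3, Ifi47 and the brightest Rsad2 probe set. Both REL points lie below all WT points except for Ifi47, where REL 2 (886) touches WT 2 (881), and REL reaches below the dim line for Rsad2 (both arrays) and Ifit2 (REL 1).

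Among the transcription factors, Irf7, the regulator that amplifies interferon production and is itself induced, gave 443, 396 and 252 for WT and, for REL, 166 and 214. REL was lower without overlap, but the gap to WT 3 was small, and the difference was −0.85 (SE 0.52, limma adjusted p = 0.73). Irf9, the DNA-binding part of the type I complex, measured 810, 1737 and 581 across WT, beside 1443 and 739 across REL. The REL arrays lay inside the WT range, and the difference was 0.14 (SE 0.49), or −0.34 without REL replicate 1. Stat2, its partner, read 308, 166 and 453 on the WT arrays against 537 and 257 on the REL arrays (0.36, SE 0.59), with an overlap of the groups, and its other probe set gave 0.24 (SE 0.57).

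Usp18, the protease that removes ISG15 from proteins and dampens the receptor, gave 535, 461 and 213 for WT and, for REL, 488 and 532, inside the WT range (0.42, SE 0.51). The sensor genes gave small differences by their brightest probe sets. Ifih1, the gene for the long double-stranded RNA sensor MDA5, was at −0.28 (SE 0.56), near the dim limit on most arrays (13.7 to 67.7 in WT, 31.1 and 14.4 in REL, with 3 of the 5 arrays dim). Dhx58, which encodes the related helicase LGP2, was at 0.28 (SE 0.51), with REL 1 (519) above and REL 2 (287) inside the WT range of 247 to 411. Zbp1, the gene for a sensor of Z-form nucleic acid that can trigger cell death, was at 0.06 (SE 0.38; −0.02 with quantile normalization), with all REL signals inside the WT range of 544 to 880.

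Among the other induced genes, Xaf1, which encodes an antagonist of the apoptosis inhibitor XIAP, measured 294, 434 and 394 across WT, beside 1453 and 254 across REL. REL 1 was the highest and REL 2 the lowest of the 5 arrays, and the difference of 0.71 (SE 0.67) was −0.52 without REL replicate 1. Rtp4, a receptor chaperone gene, read 142, 66.2 and 21.9 on the WT arrays against 117 and 88.8 on the REL arrays (0.58, SE 0.68). Its other probe set was high on REL 2 alone, at 207 against 26.7 on the highest of the remaining arrays (1.58, SE 0.84). Ifi35, a leucine-zipper protein gene, was at 0.13 (SE 0.37), and its 3 probe sets ran from 0.13 to 0.35. Parp14, an ADP-ribosyltransferase gene, gave 1813, 1678 and 1749 for WT and, for REL, 2463 and 1227. The REL arrays lay on both sides of a narrow WT range, at a difference of −0.00498 (SE 0.31) that was 0.16 with median centring. Trim30a, an inhibitor of Toll-like receptor signalling, measured 4069, 4382 and 3672 across WT, beside 4603 and 2635 across REL, likewise on both sides (−0.21, SE 0.25).

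Several members looked different by their other probe sets. Of the 45 member probe sets 39 passed the filter; both REL arrays were above every WT array for 2 of these (5.13%, against 10.4% of the 22200 probe sets tested) and below for 6 (15.4%, against 13.5%). SEs and p-values of these probe sets come from the fit over probe sets, in which none was called (0%), and these pairs were picked out after their values were seen. The other Zbp1 probe set, 1419604_at, read 94.6, 78.4 and 168 on the WT arrays against 854 and 556 on the REL arrays (2.51, SE 0.56, limma adjusted p = 0.327). REL was higher without overlap, while the brightest Zbp1 probe set showed no separation. Trim30a had the same contrast: 1417961_a_at gave 213, 69.4 and 96.4 for WT and, for REL, 751 and 474 (2.24, SE 0.61, limma adjusted p = 0.387). For Parp14 the direction was the opposite, with 1432548_at at 554, 587 and 350 across WT, beside 84.1 and 56.9 across REL (−2.55, SE 0.54, limma adjusted p = 0.311). Of the 10 members with several passing probe sets, 2 (Rsad2 and Trim30a) held both signs, against 56.3% of the 5645 such genes in all. With the mean of the probe sets per gene, Trim30a was at 1.01, Zbp1 at 1.28, Parp14 at −1.28 and Rsad2 at −1.24. The sequences of the probes were not used here, so which transcripts each probe set reads was not tested.

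**Figure D3:**
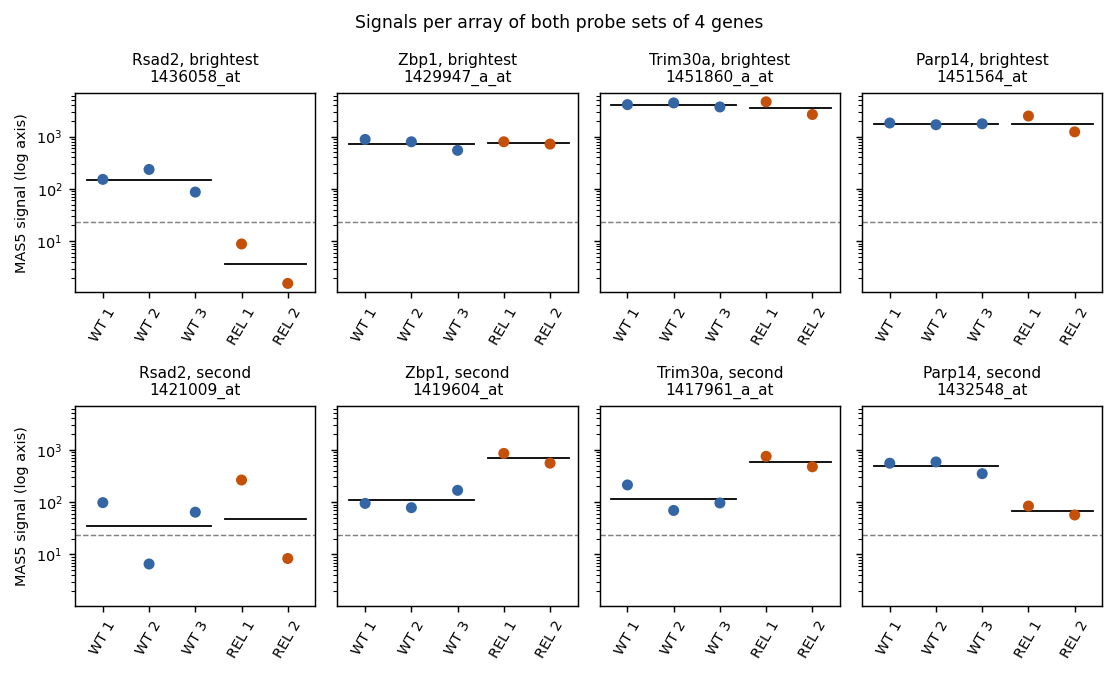
MAS5 signals on a log axis for each array (WT in blue, REL in orange; bars, geometric means; dashed line, the dim limit of 23.1) of the 2 probe sets that passed the filter for Rsad2, Zbp1, Trim30a and Parp14, the brightest in the top row. The groups separate for Rsad2 in the top row only and for the other 3 genes in the bottom row only, upward for Zbp1 and Trim30a and downward for Parp14.

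The GBP/IRG group, GTPases that attack the vacuoles of intracellular parasites and bacteria, had a median difference of −0.68, with 3 of 5 members below 0, and 0 called; without REL replicate 2 the median was 0.46, with 3 of 5 above 0. Gbp3 measured 853, 784 and 1016 across WT, beside 418 and 270 across REL. REL was lower without overlap, at a difference of −1.35 (SE 0.40, limma adjusted p = 0.424), which ran from −1.65 without REL replicate 1 to −1.04 without REL replicate 2. Ifi47, an IRG family member also called Irg47, read 1481, 881 and 1886 on the WT arrays against 567 and 886 on the REL arrays, with a bare overlap between REL 2 and WT 2 (−0.91, SE 0.40, limma adjusted p = 0.59). Irgm1, a regulator of the other IRG proteins and of autophagy, gave 337, 211 and 195 for WT and, for REL, 338 and 56.3. REL 2 alone stood below WT, and the difference of −0.68 (SE 0.72) was 0.46 without REL replicate 2. Igtp, known as Irgm3, measured 316, 332 and 717 across WT, beside 723 and 266 across REL (0.06, SE 0.58). Gbp2, in the same gene cluster as Gbp3, read 86.1, 67.9 and 123 on the WT arrays against 294 and 69.5 on the REL arrays, high on REL 1 alone (0.62, SE 0.68; −0.31 without REL replicate 1). Its other probe set had the same shape, with 446 and 16.8 in REL (0.48, SE 1.02). Near-identical GBP copies can share probes, so values of single GBP genes are uncertain.

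For many members the REL arrays disagreed with each other. Of the 28 tested members 18 were higher on REL 1 and 10 on REL 2, and 53.4% of all genes were higher on REL 1. The median absolute gap between the REL arrays was 1.01 log2 units over the members and 0.51 over all genes, and the median range of the 3 WT arrays was 1.02 against 0.67. Taken array by array as deviations from the WT mean, the 23 type I style genes had medians of 0.04, 0.12 and −0.16 in WT, 0.30 on REL 1 and −0.42 on REL 2. The REL arrays lay on either side of all 3 WT arrays. The GBP/IRG group was at −0.04, −0.34 and 0.39 in WT, 0.46 on REL 1 and −0.64 on REL 2, again on either side. The type I style median of 0.13 with the same probe sets was −0.42 without REL replicate 1, 0.30 without REL replicate 2, and −0.0037 without WT replicate 3. Leaving out an array also changed the counts. Without REL replicate 1, 13 members were below every WT array and 3 above (46.4% and 10.7%, against 34.7% and 24.6% of all genes), and without REL replicate 2, 8 were below and 9 above (28.6% and 32.1%, against 31.2% and 26.5%). REL 2 had the lowest median signal over all probe sets (30.1, against 40.7 to 54.6 in WT and 48.1 on REL 1) and the fewest probe sets above the dim limit (53.6%, against 58.4% to 67.4% on the others); the part of this in the members' values was not tested.

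**Figure D4:**
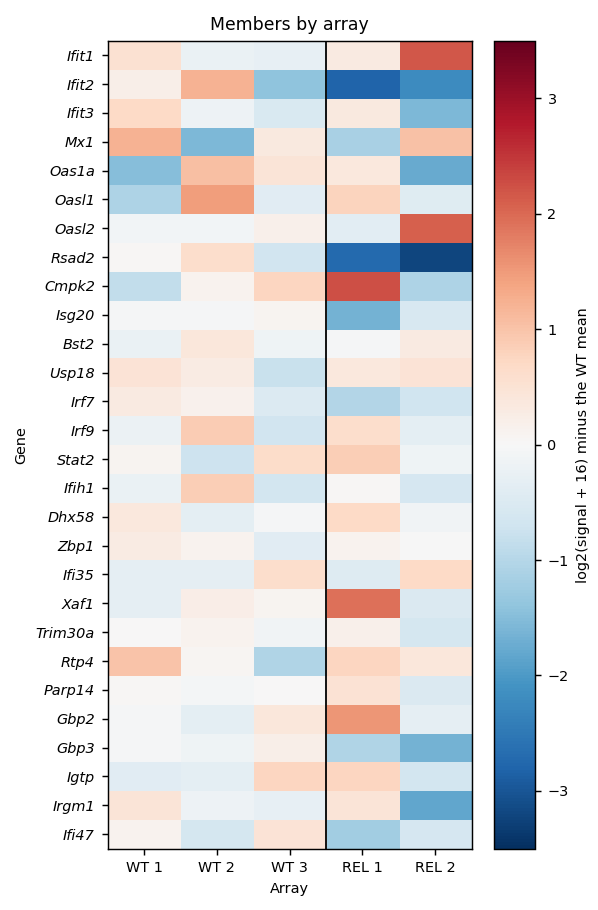
Deviation of each of the 28 tested members (rows) from its WT mean on each array (columns), as a colour scale in log2(signal + 16) units. Rsad2, Ifit2 and Gbp3 are blue on both REL arrays, while Cmpk2, Xaf1 and Gbp2 are most red on REL 1 and blue on REL 2, and Ifit1 and Oasl2 are most red on REL 2.

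Most measured interferon genes were themselves dim. Of 14 listed, 8 had a single-gene probe set; Ifnb1, Ifna2, Ifna4, Ifna9 and Ifng were below the dim limit on all 5 arrays, and Ifna1 alone passed the filter, at 49.0, 65.6 and 85.2 on WT arrays and 83.1 and 32.7 on REL arrays (−0.23, SE 0.56). Genes of the interferon family are close copies, so a probe set can read more than 1 of them.

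Receptors and signalling genes had a median difference of 0.23 over 14 tested of 16 listed, 10 of them above 0 and 0 called. The median was 0.078 without REL replicate 2, 0.14 without WT replicate 1 and 0.43 without WT replicate 3, and it ran from 0.12 with no filter or the 60% filter to 0.43 with every probe set or the replicate block (0.40 with median centring, 0.35 with the mean of probe sets). Ifnar1, the signalling chain of the type I receptor, gave 703, 626 and 587 for WT and, for REL, 1411 and 1226. REL was higher without overlap (1.03, SE 0.33, limma adjusted p = 0.436), and the other Ifnar1 probe set gave 1.01 (SE 0.57), also with separated groups. Il10rb, a receptor chain shared by interleukin-10 and lambda interferon, measured 227, 123 and 228 across WT, beside 498 and 301 across REL (1.00, SE 0.56, limma adjusted p = 0.699). Ifnar2 overlapped between the groups and spread widely, from 30.0 to 391 in WT and at 99.7 and 785 in REL (1.12, SE 1.02). The gamma receptor chains were at −0.29 (SE 0.51) for Ifngr1 and 0.55 (SE 0.59) for Ifngr2, the kinase gene Jak1 at 0.65 (SE 0.34) and the transcription factor gene Irf1 at 0.71 (SE 0.40). Jak1 had another probe set with both REL arrays below WT (−0.72, SE 0.34) and one with both above (1.68, SE 0.37).

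Sensing and adaptor genes had a median of −0.05 over 14 tested of 17, 6 above and 8 below 0, with 0 called. That median was −0.44 without REL replicate 1 and 0.40 without REL replicate 2. Irf5, which drives inflammatory cytokine genes downstream of Toll-like receptors, read 2233, 2023 and 1939 on the WT arrays against 1464 and 1174 on the REL arrays, below every WT array (−0.65, SE 0.25, limma adjusted p = 0.528). Its other probe set had separated groups as well (−0.40, SE 0.28). Ikbke, a kinase gene upstream of interferon production, gave 105, 79.7 and 152 for WT and, for REL, 66.1 and 18.3 (−1.23, SE 0.60). The endosomal RNA sensor genes Tlr3 (−1.73, SE 0.90) and Tlr7 (−1.44, SE 0.75) overlapped between the groups.

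Further interferon-induced genes outside the 33 members had a median of 0.02 over 42 tested of 62, 22 above and 20 below 0, with 0 called, and the median was −0.12 without REL replicate 2 and 0.19 with median centring. REL lay above WT without overlap for 7 of these 42 and below for 9, beside 9.53% and 14.3% of all genes. Whether these counts exceed that background was not tested. Sp100, a nuclear body gene, measured 2728, 2024 and 1882 across WT, beside 3365 and 3912 across REL (0.73, SE 0.23, limma adjusted p = 0.436), and its other probe set overlapped (0.15, SE 0.56). Trim21, an antibody receptor inside the cell that tags its targets for degradation, read 3572, 3274 and 3645 on the WT arrays against 2582 and 2124 on the REL arrays (−0.57, SE 0.20, limma adjusted p = 0.479), while its other probe set overlapped with the opposite sign (0.51, SE 0.62). A pair of GBP genes lay below WT on both REL arrays, where they were dim. Gbp6 gave 39.97, 178 and 26.02 for WT and, for REL, 3.44 and 2.29 (−2.03, SE 0.66), with its other probe set at −1.78 (SE 0.62). Gbp7 measured 332, 27.7 and 224 across WT, beside 19.3 and 5.67 across REL (−2.48, SE 0.84), and its other probe set lay the other way (1.30, SE 0.51). With median centring the median of all genes moved from −0.07 to 0.10; the type I style median was then 0.30 and the GBP/IRG median −0.51.

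**Figure D5:**
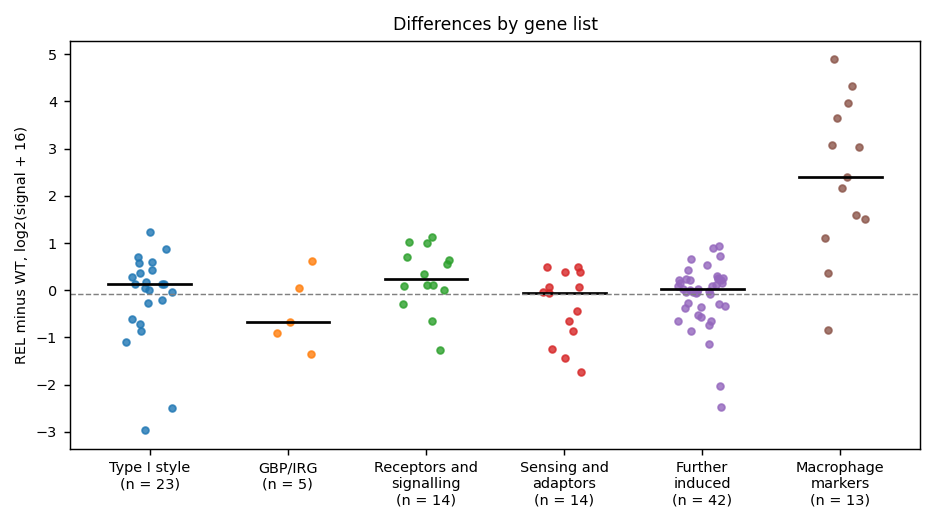
Difference between REL and WT (vertical axis, log2(signal + 16) scale) for the tested genes of the type I style and GBP/IRG groups, 3 other interferon lists and the macrophage markers; each point is 1 gene, black bars are medians and the dashed line is the median of all genes (−0.07). The interferon lists spread around that line, with medians from −0.68 to 0.23, and the macrophage markers have a median of 2.40 over 13 tested genes. Vcam1, Mrc1, Spic and Mertk passed the filter only through their REL signals, so that median is a description and tests nothing.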

How the data were processed

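Each of the 5 samples was 1 array. The authors deposited MAS5 signal intensities on a linear scale, 1 table of 45101 probe sets; the submitters' processing notes give MAS5 as the tool. Every array of that table had a 2% trimmed mean of 500.0. RNA of sorted cells had been amplified from small amounts, per the labels' protocols. MAS5 summarizes each array alone and subtracts mismatch probes, so low signals are noisy. Of the probe sets 34958 had 1 gene symbol, 932 several and 9211 none listed. Some genes of the lists are not analysed here.

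Intensities were taken as log2(signal + 16), with no normalization between arrays. The lowest 40% of probe sets by mean log2 value and 64 control probe sets were left out, and the brightest probe set per gene was kept (22200 probe sets, 12082 genes). The limma package 3.58.1 (R 4.3.3; functions lmFit and eBayes, with the prior variance following mean signal; no covariate; 3 residual and 6.84 prior degrees of freedom) gave two-sided p-values with Benjamini-Hochberg adjustment across all genes. The number of arrays limits the precision. The code was tested on simulated data. Plots used Python 3.11.15 and matplotlib 3.10.9.

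The members and lists were chosen with earlier results of these data known, so no list was tested. All 33 members are accounted for; of each other list, up to 4 genes with the smallest unadjusted p are named, plus Irf1, Ifnar1, Ifnar2, Ifngr1 and Ifngr2. Rel and the markers come from fixed lists. Alternatives were other pseudocounts (1 and 64), filters (none, 60%), normalizations, probe set rules, no trend, the replicate number as a block, and each array left out. A filter by the mean of the linear signals was added after seeing the data.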

Additional observations from a re-analysis of the deposited data

How the results depend on the processing

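No member was called under any of the 21 alternatives run, where limma adjusted p of members ran from 0.0979 (Rsad2, replicate block) upward. Over all genes, 0 were called higher with 1 or 64 added, no filter, the 60% filter, the mean of probe sets, every probe set, no trend and the filter by linear mean, 3 with median centring and 10 with the replicate block; 1 was called lower with quantile normalization and 8 with the block. Without each array in turn 0 to 3 were called higher and 0 to 5 lower. Deviations of same-numbered samples from their group means had a correlation across genes of −0.04 for number 1 and −0.02 for number 2. With 2 REL arrays, the deviation of 1 is the mirror image of the other. The check therefore cannot tell whether samples were paired. The type I style median ran from −0.42 to 0.30 and the GBP/IRG median from −0.77 to 0.46 with an array left out; under the other alternatives each moved by less than the spread between arrays.

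Only 8 of the 28 tested members kept their sign under every alternative that gave them a value (Ifit1, Ifit2, Isg20, Usp18, Irf7, Rtp4, Gbp3 and Ifi47). Sign changes were Mx1 at 0.088 and Rsad2 at 0.45 with 1 added; Mx1 at 0.14 and Zbp1 at −0.022 with quantile normalization; Mx1 at 0.12 and Parp14 at 0.16 with median centring; Trim30a at 1.01 with the mean of probe sets; and Mx1 at 0.13, Oasl1 at −0.011, Irf9 at −0.20 and Zbp1 at −0.14 with the replicate block. Rsad2 changed to another probe set, and the mean for Trim30a took in its other probe set (2.24). WT 3 was the only array in its replicate block. With the same probe sets, the block therefore gave the same differences as leaving out WT replicate 3. Causes of the other sign changes were not tested.

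With an array left out, sign changes spanned −1.56 to 0.34 for Ifit3, −1.13 to 1.04 for Mx1, −1.77 to 0.36 for Oas1a, −0.42 to 0.92 for Oasl1, −0.36 to 2.10 for Oasl2, −3.29 to 0.96 for Rsad2, −1.09 to 2.27 for Cmpk2, −0.041 to 0.34 for Bst2, −0.34 to 0.61 for Irf9, −0.15 to 0.87 for Stat2, −0.59 to 0.15 for Ifih1, −0.13 to 0.69 for Dhx58, −0.14 to 0.19 for Zbp1, −0.45 to 0.70 for Ifi35, −0.52 to 1.93 for Xaf1, −0.61 to 0.19 for Trim30a, −0.50 to 0.49 for Parp14, −0.31 to 1.55 for Gbp2, −0.64 to 0.75 for Igtp and −1.83 to 0.46 for Irgm1. With 1 REL array left, that array is assumed to vary like the others. Signals below 23.1 limit what can be said of Rsad2, Ifit1, Ifit2, Ifih1, Mx1, Rtp4, Oas2, Oas3 and Mx2. Ifit1 did not pass the filter without REL replicate 2.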
